A study of Mus musculus with 6 samples.

Results

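γδ T cells are T lymphocytes whose antigen receptor pairs a γ chain with a δ chain in place of the α and β chains of CD4 and CD8 T cells. In mouse liver they belong to the tissue-resident lymphocytes. They are known to fall into a type 17 kind, which depends on the transcription factors RORγt, RORα and c-MAF, carries the IL-7 receptor and makes IL-17, and a cytotoxic or type 1 kind, which makes granzymes, perforin and IFN-γ. The γδ T cells described here were 71 of 23008 CD45+ cells from 6 single-cell RNA-seq libraries of mouse liver. They were chosen by the deposited scaled scores of 7 genes, in which each gene of a matrix has a mean of 0 and an SD of 1: Trdc (the constant region of the δ chain) above 2, the mean of Cd3e and Cd3g (CD3 complex) above 1, and Ncr1 (NK cells), Cd8b1 and Cd4 (αβ T cells) and Cd79a (B cells) each below 1. These 7 genes are described below and were not tested.

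The 4T07 mouse mammary tumour line, with a scramble control (Ctrl) or an shRNA knockdown of Tim3 (Tim3-KD) in the tumour cells only, was injected into the heart of Balb/c mice, which themselves carried no knockdown. CD45+ cells were sorted from pieces of liver at day 3 (tumour-free adjacent tissue and micrometastasis) and day 12 (macrometastasis), and libraries were made with 10x Genomics 3′ chemistry. Each of the 6 libraries was a pool of mice and the only one of its group, so no difference between sites, or between Ctrl and Tim3-KD within a site, could be tested, and the intervals given for single libraries are 95% intervals that cover counting error only. UMIs from 1 cell are not independent of each other, which makes such intervals too narrow.

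γδ T cells were a small fraction everywhere. In adjacent tissue they made up 5 of 1803 cells in Ctrl (0.277%, exact interval 0.0901 to 0.646) and 12 of 542 in Tim3-KD (2.21%, 1.15 to 3.84). In micrometastasis there were 22 of 5106 in Ctrl (0.431%, 0.270 to 0.652) and 7 of 5142 in Tim3-KD (0.136%, 0.0547 to 0.280). In macrometastasis there were 16 of 4913 in Ctrl (0.326%, 0.186 to 0.528) and 9 of 5502 in Tim3-KD (0.164%, 0.0748 to 0.310). The share was thus lower in Tim3-KD than in Ctrl in both kinds of metastasis and higher in adjacent tissue. Dividing the Tim3-KD share by the Ctrl share gave 7.98 (2.62 to 28.9) for adjacent tissue, 0.316 (0.114 to 0.766) for micrometastasis and 0.502 (0.196 to 1.21) for macrometastasis. Counted over the cells with the Cd3 score in place of all sorted cells, the ratios were 3.56 (1.17 to 12.9), 0.354 (0.128 to 0.859) and 0.422 (0.164 to 1.01). The small adjacent Tim3-KD library gave the highest share on both counts, and its 12 cells and the other libraries' 5 to 22 set how coarse every value below is. NK cells (rule below) numbered 25 in adjacent Ctrl and 14 in adjacent Tim3-KD. They numbered 167 and 21 in micrometastasis, 179 and 67 in macrometastasis. B cells numbered 258 and 193, 684 and 84, and 622 and 542 in that order. Like the γδ share, both shares were lower in Tim3-KD metastases and higher in adjacent Tim3-KD. αβ T cells (70 and 58, 188 and 192, 184 and 239) had a higher share in Tim3-KD at all 3 sites. Whether the γδ share departs from these was not tested. Of the barcodes, 59 occurred in more than 1 library and 0 of these were γδ T cells.

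**Figure D1:**
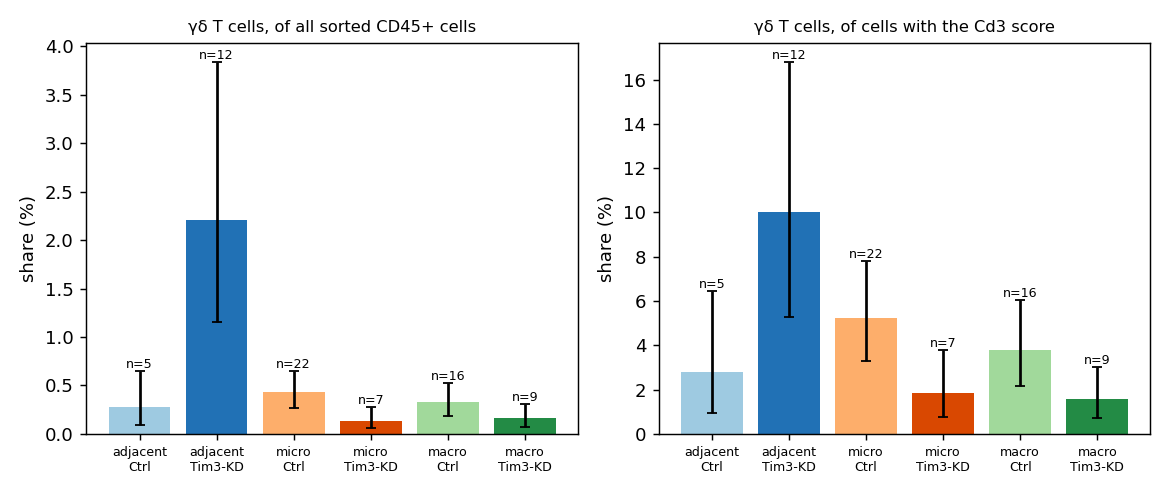
Share of γδ T cells in each library (y axis, percent), of all sorted CD45+ cells on the left and of the cells with a Cd3 score above 1 on the right. Bars are the 6 libraries with their number of γδ T cells, and lines are exact 95% intervals of counting error. The adjacent Tim3-KD library reaches 2.21% and 10% and each Tim3-KD metastasis bar is below its Ctrl bar.

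The values of the genes that chose the cells are a description. A γδ T cell held a median of 11 Trdc UMIs in adjacent Ctrl, 9.5 in adjacent Tim3-KD, 3 in micrometastasis Ctrl, 2 in micrometastasis Tim3-KD and 3 in both macrometastasis libraries. Scores stop at a cap of 10, and 35 of the Trdc values lay at it, so these numbers are lower bounds. The threshold fell in a wide gap. Adjacent tissue had 4.94 and 5.43 as the lowest Trdc scores inside it, micrometastasis 5.79 and 6.07, macrometastasis 4.44 and 5.47. Outside it the highest were 1.79 and -0.13, 0.104 and 0.0833, and 1.67 and 0.146. In the metastases this gap was mostly the step from 0 to 1 Trdc UMI. A single Trdc UMI scored a median of 5.96 in micrometastasis, 5.17 in macrometastasis and 2.16 in adjacent tissue. Of the cells that passed the other clauses but lay outside, 1, 0 and 1 held a Trdc UMI in adjacent tissue, micrometastasis and macrometastasis. The gap is therefore no measure of how distinct the cells are. Ncr1, Cd8b1 and Cd4 had 0 UMIs in all 71 cells, and Cd79a had 1 UMI in 1 macrometastasis Ctrl cell. The clauses on NK, αβ and B cells mattered. With the Trdc and Cd3 clauses alone 126 cells would have been taken, and 38 of those were kept out by Ncr1, 9 by Cd4, 8 by Cd8b1 and 3 by Cd79a, some by more than 1. Trdc itself had a UMI in 39.7% of the 473 NK cells (Ncr1 above 1, Cd3 score and Cd79a below 1) and in 0.210% of the 2383 B cells (Cd79a above 1, Cd3 score below 1).

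Receptor genes outside the rule bore on the label. γ-chain genes were in the adjacent tissue matrix only. There Trgc1 had a UMI in 15 of 17 γδ T cells, Trgc2 in 11, Trgc4 in 10 and Trgv2, a variable segment, in 8. In the 128 αβ T cells of the same tissue (Cd3 score above 1, Cd8b1 or Cd4 above 1, Trdc, Ncr1 and Cd79a below 1) the shares were 9.38%, 8.59%, 10.2% and 8.59%. The constant-region genes of one chain are near copies of each other, so the split of reads between Trgc1, Trgc2 and Trgc4 is uncertain. Trac, the constant region of the α chain, had a UMI in 17 of 71 γδ T cells (23.9%), against 88.0% of 931 αβ T cells, 8.67% of NK cells and 1.34% of B cells. Trbc1 and Trbc2, the constant regions of the β chain, were found in 47 and 63 of the 71 γδ T cells, and also in 85.6% and 41.9% of NK cells but 2.06% and 2.01% of B cells. In the comparison with αβ T cells below, neither Trbc1 nor Trbc2 was called higher or lower. The median log2 difference of the 3 αβ receptor genes was -0.36 there, so β-chain transcript did not set the γδ T cells apart from αβ T cells. In adjacent tissue the γ-chain genes thus went with the label, which they could not test for the 54 γδ T cells of the metastases. Across the 6 libraries 17 cells had a Trac UMI and 54 had none, which does not show that those 54 lack the transcript.

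Of the other markers given for these cells, Tmem176a and Tmem176b, which encode related ion channel proteins of intracellular membranes, were each found in about as many cells as not. Tmem176a had a UMI in 36 of 71 γδ T cells (50.7%, 38.6 to 62.8) and in 6.02% of αβ T cells, 8.88% of NK cells and 2.98% of B cells. Tmem176b had one in 34 (47.9%), against 6.87%, 11.8% and 3.27%. Blk, a Src family kinase of B cells and of type 17 γδ T cells, had one in 21 (29.6%, 19.3 to 41.6), against 0.430% of αβ T cells, 0 of 473 NK cells and 38.5% of B cells. Median depth was 4395 UMIs per γδ T cell, 6096 per αβ T cell, 3933 per NK cell and 4201 per B cell. Thinned to 1500 UMIs a cell, the γδ T cell shares were 33.2%, 28.6% and 14.2%. Tmem176a (chr6:48840919-48847071, + strand) and Tmem176b (chr6:48833818-48841496, - strand) overlap at their starts in the GRCm38 annotation. Whether strand was used in counting is not given in the sources used here, so UMIs in the shared stretch could fall to either. The 2 genes were found in the same cells: 33 cells had both, and 37 (52.1%) had at least 1.

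Those 37 cells were found in 5 of the 6 libraries. There were 0 of 5 γδ T cells in adjacent Ctrl, 6 of 12 in adjacent Tim3-KD, 15 of 22 in micrometastasis Ctrl, 2 of 7 in micrometastasis Tim3-KD, 10 of 16 in macrometastasis Ctrl and 4 of 9 in macrometastasis Tim3-KD. In αβ T cells of the same libraries the share ranged from 6.38% to 14.3% and in B cells from 2.89% to 9.52%. As a share of all sorted cells, γδ T cells with Tmem176a or Tmem176b were 0.294% (0.165 to 0.484) in micrometastasis Ctrl and 0.0389% (0.00471 to 0.140) in micrometastasis Tim3-KD, a ratio of 0.132 (0.0147 to 0.569). In macrometastasis they were 0.204% and 0.0727%, a ratio of 0.357 (0.0818 to 1.24). The γδ T cells without either gene gave ratios nearer 1, with 7 and 5 cells in micrometastasis (0.709, 0.178 to 2.60) and 6 and 5 in macrometastasis (0.744, 0.180 to 2.93). In adjacent tissue those without either gene numbered 5 and 6, a ratio of 3.99 (1.02 to 16.5). Those with either gene numbered 0 of 1803 in adjacent Ctrl, which allows a share of up to 0.166% (3 cells), and 6 of 542 in Tim3-KD (1.11%), with an exact lower limit of the ratio of 3.92. The intervals of both kinds of cell overlap at all 3 sites, and whether the kinds differ in their ratio was not tested. Depth differed too: γδ T cells had a median of 3822.5 UMIs in micrometastasis Ctrl and 2538 in Tim3-KD, 4880.5 and 5254 in macrometastasis, and 6987 and 10840 in adjacent tissue. The shallower library had the smaller share with either gene in micrometastasis and adjacent tissue and the larger share in macrometastasis, and the part of depth in these counts was not tested. Thinned to 1500 UMIs a cell, 60.1% of the γδ T cells in micrometastasis Ctrl and 20.4% in Tim3-KD had a UMI of either gene, and 53.4% and 28.1% in macrometastasis.

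The γδ T cells were then split by Tmem176a and Tmem176b. The 37 cells with a UMI of either and the 34 without had median depths of 4012 and 5129.5 UMIs. The split was made on the measured values, so the following counts carry no test. Blk was in 21 of the 37 and 0 of the 34. Il7r (the IL-7 receptor) was in 33 and 8, Ccr2 (a chemokine receptor) in 27 and 4, Maf (c-MAF) in 23 and 4, Rora (RORα) in 26 and 12. The co-stimulatory receptor gene Icos was in 20 and 4, Il18r1, part of the IL-18 receptor, in 23 and 7, and Ramp1, part of the receptor for the neuropeptide CGRP, in 26 and 10. Serpinb1a, a protease inhibitor, was in 11 and 0. Cxcr6 was in 25 and 18, and Ckb (a creatine kinase) in 9 and 10, a smaller share of the 37 (24.3%) than of the 34 (29.4%). The type 17 cytokine genes Il17a and Il17f were not analysed here.

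The following cytotoxic and type 1 genes were found in more of the 34 than of the 37. Nkg7, a protein of cytotoxic granules, was in 5 of the 37 and 27 of the 34, Ccl5 in 5 and 24, Prf1 (perforin) in 1 and 15, Gzma (granzyme A) in 1 and 13 and Gzmb (granzyme B) in 6 and 18. Ifng was in 5 and 20, Xcl1 (a chemokine that attracts dendritic cells) in 4 and 19, and the NK receptor gene Klrd1 (CD94) in 7 and 23. Cd27, a TNF receptor family member known to separate IFN-γ-making from IL-17-making γδ T cells, was in 2 and 23. Genes of naive and recirculating T cells were mixed. Ly6c2 was in 0 and 11, Lef1, a factor of naive T cells, in 2 and 12 and Ccr7 in 2 and 7. Tcf7 went the other way, in 19 and 10, while S1pr1 was in 11 and 8 and Klf2 in 17 and 18. Some genes did not follow the split: Klrk1 (NKG2D) was in 23 and 21, Cd69 in 34 and 28 and Rgs1 in 27 and 28. In B cells, which should lack these genes, Nkg7 was found in 2.10%, Gzma in 1.09%, Ccl5 in 3.69% and Cd27 in 3.78%.

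**Figure D2:**
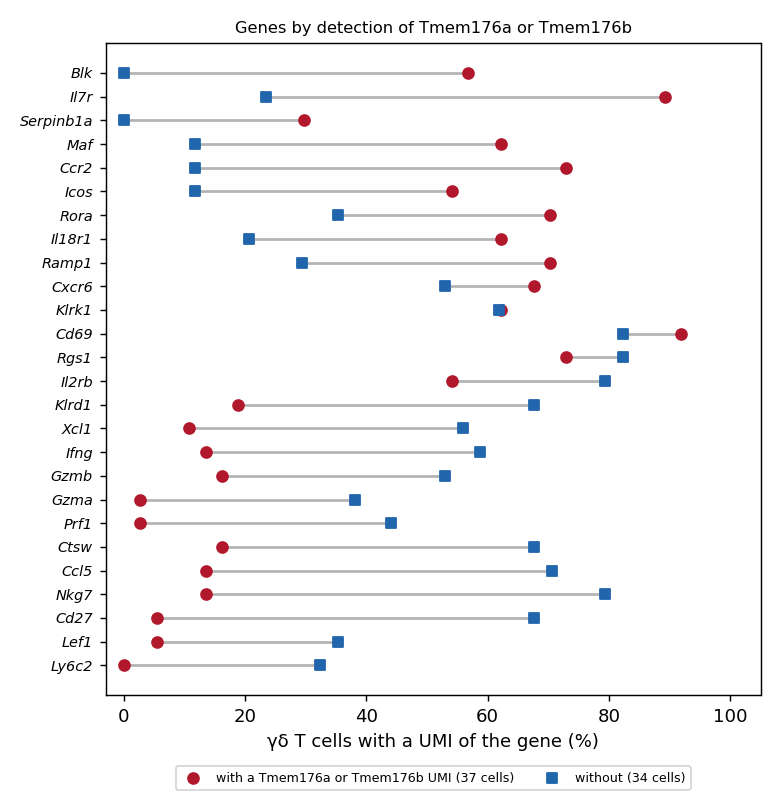
Percent of γδ T cells with a UMI of each gene (x axis), for the 37 cells with a Tmem176a or Tmem176b UMI (red circles) and the 34 without (blue squares). Genes at the top (Blk, Il7r, Serpinb1a, Maf) lie to the right in red, genes at the bottom (Nkg7, Cd27, Lef1, Ly6c2) to the right in blue, and Klrk1 overlaps.

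Counted cell by cell, 2 small sets of genes chosen from the 2 programmes rarely met. The sets leave out list genes found in both kinds of cell, such as Klrk1, so the counts describe these genes only. With UMIs of Blk, Tmem176a and Tmem176b on one side and of Gzma, Gzmb, Prf1, Ccl5 and Nkg7 on the other, 29 cells had only the first, 28 only the second, 8 both and 6 neither. Spearman's rho between the 2 sums per 10000 UMIs was -0.67 over the 71 cells, which come from 6 libraries of unequal depth. By library, the numbers of cells with the first only and the second only were 0 and 5 in adjacent Ctrl, 4 and 6 in adjacent Tim3-KD, 13 and 6 in micrometastasis Ctrl, 1 and 3 in micrometastasis Tim3-KD, 9 and 4 in macrometastasis Ctrl and 2 and 4 in macrometastasis Tim3-KD. Both Ctrl metastasis libraries held more cells of the first kind than of the second, and the other 4 libraries held fewer.

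**Figure D3:**
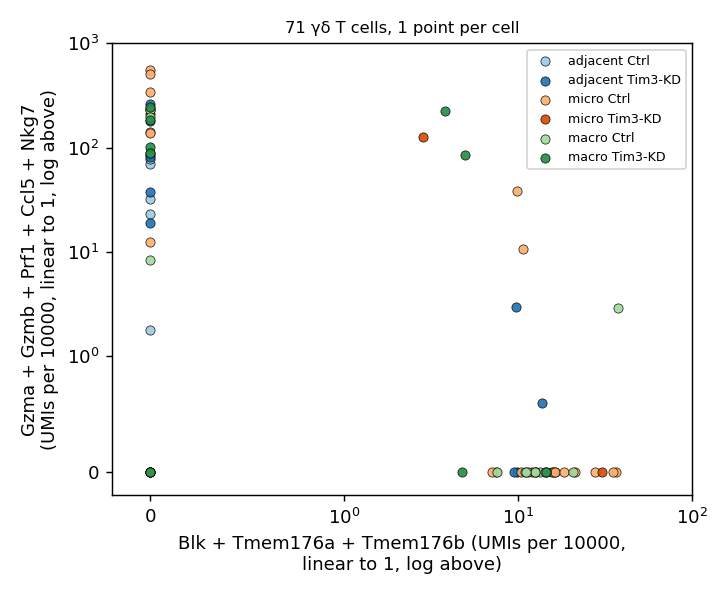
Each of the 71 γδ T cells by its UMIs of Blk, Tmem176a and Tmem176b (x axis) and of Gzma, Gzmb, Prf1, Ccl5 and Nkg7 (y axis), both per 10000 UMIs, linear to 1 and logarithmic above. Colours are the 6 libraries. Most cells lie on one axis or the other, and 8 lie off both.

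γδ T cells were next compared with αβ T cells of the same library. UMIs of each cell set were summed per library and tested with limma on log2(CPM + 10), where CPM scales the UMIs of a gene by all UMIs of those cells, with library as a block. Of 683 genes, 12 were higher in γδ T cells and 17 lower at an adjusted p under 0.05 (limma, Benjamini-Hochberg), which is 1.76% and 2.49% of the genes tested. The genes called higher included Klrk1, Xcl1, Nr4a1, Fosb and the markers Blk and Tmem176a. The immediate early and stress list, genes that also rise when tissue is taken apart into cells, summed to 1500 to 4810 CPM in γδ T cells and 1020 to 1530 CPM in αβ T cells and was higher in γδ T cells in 6 of 6 libraries. Of its 9 tested genes 1, Fosb, was called higher and 0 lower, with a median difference of 0.95, and its part in the other calls was not tested. Those called lower included the MHC class II gene H2-Aa, Ctla4, Tnfrsf4, Cd5, Cd6, Ccr7 and Stmn1. These calls leaned on single libraries. Only Cd7 was still called higher when micrometastasis Ctrl, micrometastasis Tim3-KD or macrometastasis Ctrl was left out, and 3 genes (Cd7, Irs2 and Lmna) were when macrometastasis Tim3-KD was. Of the genes called lower, only Tnfrsf4 was still called without micrometastasis Tim3-KD and only Ccr7 without macrometastasis Ctrl. By limma 0 were lower without micrometastasis Ctrl, without macrometastasis Tim3-KD, or with 1 CPM added in place of 10, where 52, 47 and 64 genes were lower at an unadjusted p under 0.05. With 1 CPM added, Cd7 and Lmna were still called higher.

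Cd7, a glycoprotein of T and NK cells, differed most among the genes higher in every library. It stood at 354, 466, 452, 1070, 342 and 340 CPM in γδ T cells (adjacent Ctrl and Tim3-KD, micrometastasis Ctrl and Tim3-KD, macrometastasis Ctrl and Tim3-KD) and at 69.9, 30.5, 91.8, 50, 47.3 and 39.6 CPM in αβ T cells. The groups did not overlap, and the difference was 2.92 ± 0.37 (SE, log2, limma adjusted p = 3.68e-04, higher in 6 of 6 libraries). Klrk1, the gene of the activating receptor NKG2D, stood at 330, 275, 305, 291, 241 and 535 CPM in γδ T cells and at 63.9, 13.5, 130, 152, 126 and 155 CPM in αβ T cells, without overlap (1.74 ± 0.40, limma adjusted p = 0.0218). The other genes higher in 6 of 6 libraries were Lmna (lamin A/C, 2.32), Spry2 (an inhibitor of receptor signalling, 2.04), Irs2 (an insulin receptor substrate, 1.94), Rgs1 (a regulator of chemokine receptor signalling, 1.64), Nr4a1 (an immediate response gene of receptor stimulation, 1.42) and Fosb (an AP-1 subunit, 1.35). Blk (2.83), Tmem176a (2.56), Xcl1 (2.27) and Mmp25 (a membrane-bound protease, 2.14) were also called, and each was higher in 5 of 6 libraries. Adjacent Ctrl, the library with 5 γδ T cells, was the exception for all 4. Tmem176b (2.08) missed the threshold with a limma adjusted p of 0.0892.

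Of the genes lower in γδ T cells in 6 of 6 libraries, H2-Aa, an MHC class II chain, stood at 23.6, 56.5, 0, 0, 0 and 0 CPM against 65.4, 75.6, 123, 215, 134 and 134 CPM in αβ T cells (-2.91 ± 0.55, limma adjusted p = 0.0155). No γδ value reached the lowest αβ value. The class II genes H2-Ea, H2-Ab1 and H2-Eb1 were called lower too, though not lower in adjacent Tim3-KD. The B cell marker list, whose cells carry class II, summed to 22.6 to 194 CPM in γδ T cells and 61.2 to 275 CPM in αβ T cells, and its part in this result was not tested. Ccr7, which guides T cells to lymph nodes, stood at 142, 28.2, 22.6, 0, 127 and 0 CPM against 208, 359, 184, 49.3, 176 and 201 CPM (-2.30 ± 0.49, limma adjusted p = 0.0191). Its values overlapped, since the αβ value of micrometastasis Tim3-KD lay below the γδ values of both adjacent Ctrl and macrometastasis Ctrl. Cd5 (-2.05) and Cd6 (-2.28), both inhibitory co-receptors of αβ T cells, were in 5 and 8 of 71 γδ T cells and lower in all libraries, as were Tnfrsf4 (OX40, -2.62), Dut (nucleotide synthesis, -2.12), Nrgn (-2.17), Ctla2a (-1.36) and the predicted gene Gm8369. Ctla4, a checkpoint receptor, was called lower without being so in every library, as were Trac (-1.92), Stmn1, Pclaf and H1f5. Stmn1 and Pclaf are genes of dividing cells and were higher in γδ T cells of adjacent Ctrl only. There 1 γδ T cell held most of the UMIs of the proliferation list, which summed to 4010 CPM in that library and to at most 63.3 CPM in the other 5.

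**Figure D4:**
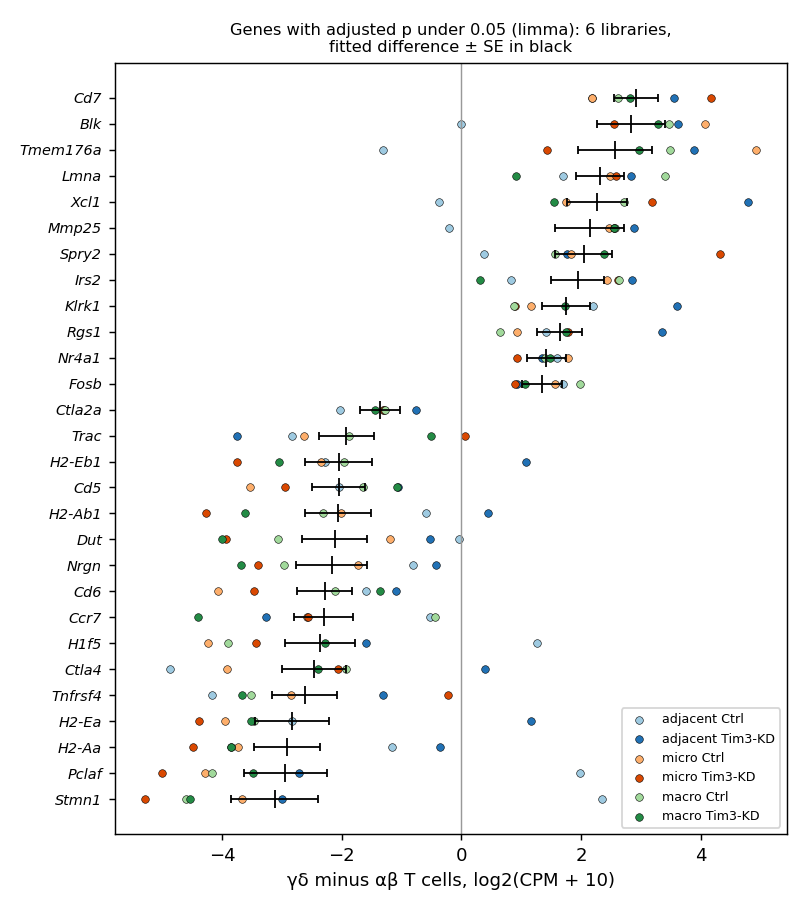
Difference between γδ and αβ T cells in log2(CPM + 10) (x axis) for the genes with a limma adjusted p under 0.05, leaving out Gm8369. Points are the 6 libraries and black bars the fitted difference ± SE. Cd7 is above 2 in each library, while adjacent Ctrl stands apart for Tmem176a, Stmn1 and Pclaf.

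By list, 2 of 13 tested type 17 genes (Blk and Tmem176a) and 2 of 20 cytotoxic genes (Xcl1 and Klrk1) were called higher and none lower, where 1.76% and 2.49% of all genes were. None of these 4 calls was kept without micrometastasis Ctrl, micrometastasis Tim3-KD, macrometastasis Ctrl or macrometastasis Tim3-KD. Their lists' median differences were 0.91 and 0.62, against 0.02 over all 683 genes. Il7r (0.64 ± 0.45), Cxcr6 (0.40 ± 0.50) and Icos (-0.47 ± 0.43) did not pass in this comparison. Of 11 activation and checkpoint genes, Nr4a1 was called higher and Ctla4, Tnfrsf4 and Cd5 lower. Havcr2, the gene of TIM3 itself, had 0 UMIs in 71 γδ T cells, which allows up to 4.23% of cells with a UMI and does not limit the cells that express it. A UMI was found in 14.3% of the deeper αβ T cells (4.24% when thinned to 1500 UMIs a cell), 1.48% of NK cells and 0.755% of B cells.

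Against NK cells the differences were more numerous. Of 739 genes, 47 were higher in γδ T cells (6.36%) and 83 lower (11.2%) at an adjusted p under 0.05 (limma). Il7r stood at 70.8, 551, 847, 388, 988 and 170 CPM in γδ T cells against 19.7, 35.3, 27.9, 19.2, 21.1 and 76.7 CPM in NK cells (3.23 ± 0.48, limma adjusted p = 1.49e-05), and overlapped only where adjacent Ctrl fell below the highest NK library. Cxcr6, the receptor that holds lymphocytes in liver sinusoids, stood at 23.6, 367, 395, 146, 304 and 462 CPM against 0, 52.9, 24.1, 19.2, 24.1 and 24.2 CPM (2.88 ± 0.43, limma adjusted p = 1.49e-05). Apart from adjacent Ctrl, every γδ value was above every NK value. In all, 6 of 13 type 17 genes were called higher (Rora, Cxcr6, Il7r, Blk, Ramp1 and Icos) and 0 lower, with a median of 1.12 against -0.18 over all 739. The T cell signalling genes Cd3d (3.93, of the complex that also gave the rule) and Lat (2.54), Trbc2 (2.54), Trac (2.22), S1pr1 (a receptor for egress from tissue, 2.57), Ikzf2 (Helios, 2.47), Klk8 (2.79) and Prelid2 (2.14) were higher in 6 of 6 libraries.

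Cytotoxic genes lay the other way. Of 21 tested, 0 were higher and 9 lower in γδ T cells (Eomes, Gzma, Prf1, Nkg7, Ccl3, Ccl4, Ccl5, Klrd1 and Klre1), with a median of -0.99. Gzma stood at 802, 861, 1570, 1600, 684 and 24.3 CPM in γδ T cells and at 9540, 5750, 11100, 8260, 10500 and 8060 CPM in NK cells (-3.88 ± 0.52, limma adjusted p = 4.64e-06). Prf1 stood at 0, 84.7, 33.9, 48.5, 25.3 and 146 CPM against 802, 658, 1010, 237, 1010 and 868 CPM (-3.85 ± 0.47, limma adjusted p = 9.81e-07). Neither gene's groups overlapped. Among the genes lower in all 6 libraries were also the transcription factors Irf8 (-4.67) and Eomes (-3.88), the NK receptor genes Klra3 (-4.05) and Klra7 (-3.57), Ccl3 (-3.70), Nrgn (-3.61), Serpinb6b (-2.82) and Car2 (-2.68). Klra3, Klra7 and Eomes had 49, 65 and 43 values at the cap in NK cells, so their differences are understated. Cd7 (0.06 ± 0.39), Klrk1 (-0.27 ± 0.37) and Xcl1 (-0.35 ± 0.43), which stood out against αβ T cells, did not pass against NK cells.

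**Figure D5:**
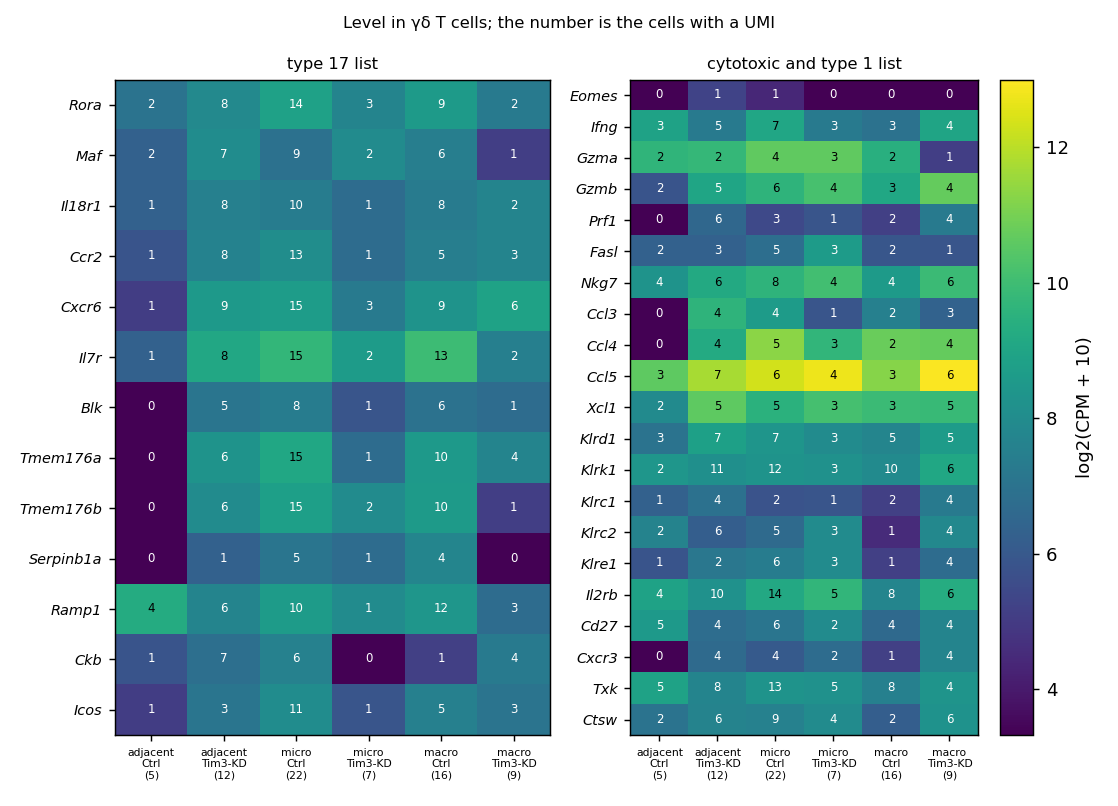
Level in γδ T cells of the type 17 genes (left) and the cytotoxic and type 1 genes (right) held by all 3 matrices, as log2(CPM + 10) by colour, in the 6 libraries (columns, with their number of γδ T cells). The number in each field is the cells with a UMI. The type 17 genes sum to 1090 CPM in adjacent Ctrl and to between 1870 and 4280 CPM in the other 5 libraries.

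The upstream sequences of 2 genes of the type 17 list that were higher in γδ T cells than in NK cells in 6 of 6 libraries are shown as context. Of the 6 called genes of that list, 4 had an entry in the RefSeq promoter table (GRCm38.p6), and the 2 shown are free of annotated exons over the printed stretch, which ends 1 base before the gene. Cxcr6 is on the + strand at chr9:123806227-123806474 and Ramp1 on the + strand at chr1:91179572-91179821.
Cxcr6: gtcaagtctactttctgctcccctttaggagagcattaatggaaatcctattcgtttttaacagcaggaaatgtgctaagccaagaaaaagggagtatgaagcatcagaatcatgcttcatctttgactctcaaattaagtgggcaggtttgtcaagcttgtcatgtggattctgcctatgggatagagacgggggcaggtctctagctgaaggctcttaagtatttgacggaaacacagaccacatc
Ramp1: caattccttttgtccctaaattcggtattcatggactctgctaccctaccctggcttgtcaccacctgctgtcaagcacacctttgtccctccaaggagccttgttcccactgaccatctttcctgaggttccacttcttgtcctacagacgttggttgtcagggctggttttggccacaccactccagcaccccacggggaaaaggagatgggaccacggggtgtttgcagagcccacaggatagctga
Letters were searched on both strands for the ROR half-site AGGTCA, the AP-1 site TGANTCA and the RUNX site TGTGGTT, with 0 matches in both stretches, so no base is in capitals. Of 32851 stretches of 250 bases before gene starts, 14%, 6.75% and 4.40% hold a match.

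Within γδ T cells, Tim3-KD was set against Ctrl at each site by 1 library each, so the ratios are descriptions. A limma fit over the 3 sites with site as a block, added after seeing the data, called 0 of 695 genes higher and 0 lower in Tim3-KD (lowest adjusted p = 0.951), with 8 higher and 13 lower at an unadjusted p under 0.05. The type 17 genes held by all 3 matrices summed to 4280 CPM (3860 to 4730) in micrometastasis Ctrl and 1940 CPM (1390 to 2640) in Tim3-KD. In macrometastasis they summed to 3740 CPM (3320 to 4190) and 1870 CPM (1480 to 2340), and in adjacent tissue to 1090 CPM (795 to 1450) and 2940 CPM (2660 to 3230). Their summed level was thus lower in Tim3-KD in both kinds of metastasis and higher in adjacent tissue. With no filter on low values, 12 of 13 type 17 genes with a UMI had a lower CPM in Tim3-KD in micrometastasis, all but Maf, where 60.7% of the 1826 features with a UMI did. In macrometastasis 12 of 16 were lower, with 55.9% of 1588 features, and in adjacent tissue 1 of 15, with 50.3% of 3326. At each site the library with the lower sum also had fewer UMIs over its γδ T cells: 20600 against 88531 in micrometastasis, 41130 against 78953 in macrometastasis and 42388 against 141683 in adjacent tissue, and the part of this in the single-gene counts was not tested. The immediate early and stress list moved with them in part. It had a lower CPM in Tim3-KD for 12 of 12 genes in micrometastasis, 4 of 9 in macrometastasis and 4 of 13 in adjacent tissue, and its sum went from 3120 to 1500 CPM, from 2630 to 4810 CPM and from 3540 to 4160 CPM. Its part in the type 17 values was not tested. The monocyte and macrophage list, which shares Ccr2 with the type 17 list, also differed in adjacent tissue, with 94.4 CPM (25.7 to 242) in Ctrl and 402 CPM (305 to 521) in Tim3-KD and 7 of its 7 genes with a UMI higher in Tim3-KD, and its part was not tested.

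A minimum of 20 UMIs and 5 cells over both libraries is passed mainly through the library with more UMIs, so the counts under it are a description and support nothing. Under it, 0 type 17 genes were at least 2-fold higher and 6 of 8 at least 2-fold lower in micrometastasis, where 12.9% of all 132 features were higher and 26.5% lower. In macrometastasis 0 were higher and 4 of 8 lower, with 26.2% and 22.3% of all features. In adjacent tissue 7 of 9 were higher and 1, Ramp1, lower, with 40.3% and 22.2% of 176 features. In adjacent tissue 38 of the 176 features bore ribosomal, pseudogene or predicted-gene names, and without them 29.0% were higher and 27.5% lower.

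Of the type 17 genes, only Il7r had an interval that left out 1 at all 3 sites. It had 75 UMIs in 15 cells of micrometastasis Ctrl (847 CPM) and 8 in 2 cells of Tim3-KD (388 CPM), a ratio of 0.458 (0.191 to 0.951). In macrometastasis it had 78 UMIs in 13 cells (988 CPM) and 7 in 2 (170 CPM), a ratio of 0.172 (0.0671 to 0.372), and in adjacent tissue 3 in 1 cell (70.8 CPM) and 78 in 8 (551 CPM), a ratio of 7.78 (2.57 to 38.5). Tmem176a had 47 UMIs in 15 cells and 2 in 1 cell in micrometastasis (0.183, 0.0215 to 0.698), and 28 in 10 and 8 in 4 in macrometastasis (0.548, 0.216 to 1.24). Tmem176b had 38 in 15 cells and 5 in 2 in micrometastasis (0.565, 0.174 to 1.44), and 30 in 10 and 1 in 1 in macrometastasis (0.0640, 0.00157 to 0.385). In adjacent Ctrl both had 0 UMIs, and the adjacent Tim3-KD levels were 303 and 247 CPM, with exact lower limits of the ratio of 3.34 and 2.69. Blk also had 0 UMIs there, with 18 in 5 cells of Tim3-KD (lower limit 1.32). Since a level summed over few cells moves with how many of them are of each kind, a change in those numbers and a change in RNA per cell cannot be told apart here.

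The summed level of the cytotoxic and type 1 list had a higher value in Tim3-KD at each site, from 1 library each. It stood at 14700 CPM (13900 to 15500) in micrometastasis Ctrl and 16200 CPM (14500 to 18000) in Tim3-KD, at 8160 (7540 to 8810) and 16800 (15600 to 18100) in macrometastasis and at 5640 (4950 to 6400) and 10500 (9940 to 11000) in adjacent tissue. The intervals overlapped in micrometastasis only, but they are too narrow, since UMIs of 1 cell are not independent. Few genes and cells made up much of these differences. In macrometastasis Ccl5 stood at 2394 CPM in Ctrl (3 cells with a UMI) and 7829 CPM in Tim3-KD (6 cells). In adjacent tissue Ccl5 stood at 1533 CPM (3 cells) and 3402 CPM (7 cells), and Xcl1 at 235.9 CPM (2 cells) and 1525 CPM (5 cells). With no filter on low values, 14 of 21 genes with a UMI had a higher CPM in Tim3-KD in micrometastasis, with 39.3% of all features, 16 of 21 in macrometastasis, with 44.1%, and 14 of 21 in adjacent tissue, with 49.7%. The micrometastasis values depend on the rule: with cells chosen by UMIs, the log2 ratio of Ccl5 there turned from 0.44 to -1.43. Under the minimum of 20 UMIs and 5 cells, again as a description only, 0 of 13 genes were at least 2-fold higher in micrometastasis and 3 lower (Ccl3, Ccl4 and Ifng), with 12.9% and 26.5% of all features. In adjacent tissue 4 of 11 were higher and 3 lower, with 40.3% and 22.2% of all features. In macrometastasis 6 of 10 were higher (Ccl5, Gzmb, Ifng, Il2rb, Klrk1 and Nkg7) and 0 lower, with 26.2% and 22.3% of all features. Gzma, with 139 UMIs in 4 cells of micrometastasis Ctrl and 33 in 3 of Tim3-KD, had a ratio of 1.02 (0.676 to 1.5). In macrometastasis it had 54 UMIs in 2 cells and 1 in 1 cell (0.0355, 8.84e-04 to 0.207), opposite to Gzmb with 42 in 3 and 69 in 4 (3.15, 2.12 to 4.74). A few cells carried each of these sums.

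Among all ranked genes, the highest ratios in micrometastasis belonged to the interferon-stimulated gene Ifi27l2a (8.6, 3.84 to 20.6), Cd160 (an NK and T cell surface receptor, 4.30, 1.69 to 10.9) and Lck (a kinase of the T cell receptor, 4.30, 1.61 to 11.5). The lowest were Gadd45b (58 UMIs in 15 cells and 1 in 1, 0.0741), the joint feature of Bcl2a1b and Bcl2a1d (0.123) and Gpr183 (an oxysterol receptor), which had 24 UMIs in 10 Ctrl cells and 0 in Tim3-KD. In macrometastasis Dusp2 (7.68), Thy1 (7.04) and Cd160 (5.48) were highest, and Tmem176b, Lmna (0.111) and Avpi1, with 21 UMIs in 7 Ctrl cells and 0 in Tim3-KD, were lowest. In adjacent tissue Lgals3 (galectin-3), with 0 UMIs in Ctrl and 94 in 8 cells of Tim3-KD, stood highest, before Tmem176a and then Tmem176b, which tied with Klf4 (a Krüppel-like transcription factor) at 0 and 35 UMIs. Ifi27l2a (0.0406, 0.0167 to 0.0853), Gimap5 (0.0935) and Cd28 (0.106) stood lowest. Ifi27l2a thus had its lowest ratio in adjacent tissue and its highest in micrometastasis. The ratios, intervals and ranks of Cd160 are uncertain, since 2 of its 3 Ctrl and 4 of its 5 Tim3-KD values above 0 in micrometastasis were at the cap, and 1 of 2 and 3 of 6 in macrometastasis. Avpi1 had 2 of 7 Ctrl values at the cap.

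Markers of other cells were present to different degrees in the γδ T cells. The dendritic cell markers held by all 3 matrices were at 0 in each library, and hepatocyte markers summed to at most 63.3 CPM and neutrophil markers to at most 38 CPM. Ms4a1 and Ebf1 of B cells were at 0 in all 71 cells, but the B cell list without Cd79a summed to 22.6 to 194 CPM. It was above the αβ level only in micrometastasis Tim3-KD (194 and 64.8 CPM), with 4 UMIs in 1 of 7 γδ T cells. The endothelial list summed to 142 CPM in adjacent Ctrl, all of it Pecam1 in 3 of 5 cells, and to at most 25.3 CPM in the other 5 libraries. The NK list summed to 292 to 1890 CPM, against 46.2 to 2370 CPM in αβ T cells and 7060 to 12900 CPM in NK cells. The monocyte and macrophage list, which shares Ccr2 and Ly6c2 with γδ T cells, summed to 94.4 to 402 CPM, against 242 to 586 CPM in αβ T cells and 417 to 1380 CPM in NK cells, where it was higher than in γδ T cells in 6 of 6 libraries. Its part in the genes called lower than in NK cells was not tested. It was above the αβ level in adjacent Tim3-KD (402 and 324), micrometastasis Ctrl (350 and 242) and macrometastasis Tim3-KD (365 and 317), and Csf1r had 1 UMI in 71 cells.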

How the data were processed

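CD45+ cells of 6 libraries, 2 per matrix in 3 matrices, were profiled by the authors with 10x 3′ chemistry. The authors trimmed reads with Trim Galore 0.4.3, mapped them with STAR 2.7.7a to GRCm38, counted UMIs over exons and introns, filtered cells and removed doublets with scrublet before deposit. No further cell was removed as a doublet here. The deposited values are scores: log-normalized UMIs per 10000 with the total regressed out, scaled per gene and matrix and capped at 10. They were inverted to whole UMIs (at least 99.997% of values within 0.05 of a whole number). Capped values are lower bounds. The total of a cell covers all its genes, of which the matrices hold 11.3% to 14.7% of UMIs.

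The tests had been planned for counts, but the deposited unit is a score, so limma 3.58.1 (R 4.3.3) was used on log2(CPM + 10) of recovered UMIs summed per library and cell set. Cell sets of 1 library come from the same mice, so library was a block. Of the 1635 genes in all 3 matrices other than the 7 rule genes, those with a mean of at least 20 CPM were tested, with Benjamini-Hochberg adjustment and a threshold of 0.05. The procedure was tested on simulated data. Intervals are exact (Clopper-Pearson, Poisson or conditional, scipy 1.17.1) and cover counting error only. A floor is 3 counts. Libraries were single, so p-values from cell sets measure the spread of the paired differences over 6 libraries.

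Named genes were all genes of the marker and programme lists, the 10 genes of largest positive and of largest negative difference with the same sign in 6 libraries in each limma comparison, and the 3 genes of highest and lowest Tim3-KD over Ctrl ratio per site with at least 20 UMIs and 5 cells, 0.5 added to each sum. Mitochondrial, ribosomal, haemoglobin, immunoglobulin and predicted genes were left out of the ranks. Genes called outside these ranks are named too. The members and lists were chosen with earlier results of these data known.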

Additional observations from a re-analysis of the deposited data

Results flagged for a closer look

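These values were picked out because a Tim3-KD over Ctrl ratio pointed one way at one site and the other way at another, with counting intervals on opposite sides of 1 for genes and with no condition on the interval for the share of γδ T cells. The genes compared were those of the marker and programme lists and the ranked genes. None of the differences between sites was tested, since each is built on 4 single libraries. For the share of γδ T cells among sorted cells, the ratio in adjacent tissue was 25.3 times that in micrometastasis and 15.9 times that in macrometastasis, where the interval of the ratio (0.196 to 1.21) holds 1.

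For genes within γδ T cells the differences are between log2 ratios with 0.5 added to each UMI sum. Between adjacent tissue and micrometastasis they were 6.85 for Tmem176a, 3.79 for Il7r, 8.47 for Ccl3, 7.25 for Ccl4, 3.75 for Jun, 2.93 for Nfkbia, -7.62 for Ifi27l2a and -3.08 for Trbc1. Between adjacent tissue and macrometastasis they were 7.81 for Tmem176b, 5.19 for Il7r, 3.87 for Maf, 4.75 for Atf3, -5.98 for Ifi27l2a, -8.17 for Hspa1a, -6.24 for Hspa1b, -5.39 for Cd28, -3.72 for Ifng, -6.93 for Tox and -3.37 for Trbc2. Between micrometastasis and macrometastasis they were -3.68 for Ifng, -3.23 for Jun and 3.15 for Trbc1. With the rule on UMIs, the micrometastasis log2 ratio of Trbc1 turned from 1.22 to -0.45, and its ratios then had the same sign at all 3 sites. Tmem176a, Tmem176b, Ccl3 and Ccl4 had 0 UMIs in adjacent Ctrl and Tox and Hspa1b had 0 in macrometastasis Ctrl, so the sizes of those 6 depend on the added 0.5. Ifng had 1 value at the cap in micrometastasis Ctrl. Adjacent Ctrl held 5 γδ T cells, and it enters all of these values but the 3 between micrometastasis and macrometastasis.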

How the results depend on the processing

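The rule on Trdc moved little: 73 cells passed with a score above 1 and 71 with one above 4, and the same 71 remained without cells over the 95th percentile of UMIs. In the metastases 1 Trdc UMI mostly scored above each of these cutoffs, so this stability there was largely set by whole UMIs. A rule on UMIs gave 64 cells, 61 of them among the 71. With the Trdc and Cd3 clauses alone every share was higher: adjacent Ctrl 0.610%, adjacent Tim3-KD 3.14%, micrometastasis Ctrl 0.666%, micrometastasis Tim3-KD 0.272%, macrometastasis Ctrl 0.590% and macrometastasis Tim3-KD 0.382%. Over cells with the Cd3 score, Ctrl and Tim3-KD shares came to 2.81% and 10% for adjacent tissue, 5.23% and 1.85% for micrometastasis, 3.77% and 1.59% for macrometastasis. Thinned to 1500 UMIs, 33.2% of γδ T cells had a UMI of Tmem176a, 28.6% of Tmem176b, 14.2% of Blk and 34.2% of Cxcr6.

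Against αβ T cells, 12 genes were higher and 17 lower. With 1 CPM added there were 2 and 0 (109 of 683 genes had an unadjusted p under 0.05 with 10 CPM added), with the rule on UMIs 6 and 8. Chosen after seeing the data, cells without a Trac UMI gave 21 and 48, and the 3 libraries with at least 10 γδ T cells 27 and 20. Of the calls in those 3 libraries, 9 higher and 5 lower were among the 12 and 17. Leaving out 1 library at a time gave 1 to 25 higher and 0 to 39 lower genes. Without adjacent Ctrl there were 25 and 39, without micrometastasis Ctrl 1 and 0, without micrometastasis Tim3-KD 1 and 1, without macrometastasis Ctrl 1 and 1 and without macrometastasis Tim3-KD 3 and 0. Against NK cells, 47 were higher and 83 lower, 28 and 49 with 1 CPM added, 28 and 52 with the rule on UMIs, and 29 to 47 and 60 to 78 with 1 library left out, where 29 higher came without micrometastasis Ctrl. Without the library block 12 and 14 genes were called against αβ T cells, of which 11 and 12 were the same, and 44 and 63 against NK cells, of which 40 and 62 were the same.

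With the rule on UMIs, 20 in place of 11 listed genes were at least 2-fold lower in micrometastasis Tim3-KD, and the log2 ratio turned to -1.43 for Ccl5, -1.0 for Rgs1 and -0.45 for Trbc1. The cause of these moves was not tested. With 5 to 22 γδ T cells a library, depth and cell number limit every ratio within γδ T cells, and a gene at 0 UMIs may be present below the floor.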
